A study of Homo sapiens with 3 samples.

Results

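Cytoplasmic intermediate filaments other than keratins were represented by 10 genes, VIM, NES, GFAP, NEFL, NEFM, NEFH, INA, PRPH, DES and SYNM. They were taken as a gene family, by symbol, and all 10 were found among the 27307 gene symbols measured. Where a symbol had several RefSeq transcript entries, the entry with the highest mean level was used. The data were 3 RNA-seq libraries, teratomas 1, 2 and 3 by replicate number, which formed 1 group with no control. H1 is an established human embryonic stem cell line, and 1000000 of its cells had been injected subcutaneously into immunodeficient SCID-beige mice. The teratomas, growths in which such cells differentiate into many tissues, were collected 3 to 4 weeks later. Whether each library stands for a tumour of its own is not stated, so the spread between them may be technical. Removal of reads from mouse host cells is not stated either.

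Intermediate filaments are rope-like polymers that give a cell its mechanical strength, and which gene a cell uses depends on its lineage and stage. VIM, DES, GFAP and PRPH belong to type III, whose proteins can assemble alone. NEFL, NEFM, NEFH, INA, NES and SYNM belong to type IV, most of which need a partner. Neural precursors make VIM and NES, maturing neurons make INA and the neurofilament proteins NEFL and NEFM, with NEFH late, while GFAP marks astrocytes, PRPH peripheral neurons and DES muscle.

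Levels are the deposited RPKM values, which scale reads to transcript length in kilobases and to 1000000 reads of the library. The totals behind them were 46243199 reads for teratoma 1, 45815402 for teratoma 2 and 43605458 for teratoma 3. Values given 3 at a time follow that order, and errors after ± are SDs over the 3 libraries (n = 3). Differences between libraries are on the log2(RPKM + 1) scale, which understates those of low genes. A gene was called detected at 1 RPKM or more in all 3 libraries. Of the 10 genes 9 were detected, with GFAP the exception, against 52.7% of all genes. The median of the 10 mean levels was 52.1 RPKM, against 2.05 RPKM over all genes.

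The bases before the transcription start were at hand for 5 of the 10 genes. NES, highest in teratoma 3, and VIM, highest in teratoma 1, are not shown. The other 3 are shown, of which INA and SYNM were highest in teratoma 3 and PRPH in teratoma 1. The sequences are the 250 bases before the start in RefSeq (GRCh38.p14), 5′ to 3′ on the gene's strand, which is the plus strand for all 3. They lie at chr10:103276888-103277137 for INA, chr15:99104830-99105079 for SYNM and chr12:49294897-49295146 for PRPH. Capitals mark the GC box GGGCGG and the TATA box TATAAA, searched on both strands.
INA: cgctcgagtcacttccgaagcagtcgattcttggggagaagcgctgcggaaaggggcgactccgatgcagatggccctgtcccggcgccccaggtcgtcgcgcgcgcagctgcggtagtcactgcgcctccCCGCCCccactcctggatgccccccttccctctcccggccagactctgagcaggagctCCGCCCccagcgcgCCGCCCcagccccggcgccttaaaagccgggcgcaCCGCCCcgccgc
SYNM: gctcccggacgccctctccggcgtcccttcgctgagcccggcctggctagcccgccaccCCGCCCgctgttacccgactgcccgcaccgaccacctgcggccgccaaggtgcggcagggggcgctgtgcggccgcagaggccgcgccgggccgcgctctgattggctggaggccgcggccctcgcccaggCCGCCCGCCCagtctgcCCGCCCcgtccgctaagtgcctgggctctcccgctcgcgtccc
PRPH: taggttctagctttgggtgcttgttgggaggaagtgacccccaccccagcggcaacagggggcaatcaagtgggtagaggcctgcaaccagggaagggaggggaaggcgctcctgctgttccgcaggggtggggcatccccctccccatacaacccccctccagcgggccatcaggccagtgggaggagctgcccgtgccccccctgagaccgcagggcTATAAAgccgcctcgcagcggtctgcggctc

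INA held 4 GC boxes and no TATA box. SYNM also held 4 GC boxes, a pair of which overlap, and no TATA box. PRPH held no GC box and 1 TATA box, which began 31 bases before the start. Over 35116 promoters of the same length 42.6% held a GC box and 10.7% a TATA box. An E-box, CANNTG, was found at 2 places in INA, 1 in SYNM and 1 in PRPH, and in 61.8% of all promoters. The dinucleotide CG occurred 30 times in INA, 34 times in SYNM and 10 times in PRPH, with a median of 11 over all promoters. VIM and NES, also in the table, had 8 each, with 1 GC box in VIM and 2 in NES, and neither had a TATA box or an E-box. These matches describe the letters of the window and are not binding sites.

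VIM, vimentin, the filament of mesenchymal and neural precursor cells, was by far the most abundant of the 10. It stood at 1098, 981 and 787 RPKM (955 ± 157, SD, n = 3) and ranked 10 among all 27307 genes. Teratoma 3 was lowest, and its 95% Poisson counting interval of 781 to 793 lay below the 975 to 987 of teratoma 2. The library order thus went beyond counting error, although the whole range was only 0.48 on the log2 scale. The 10 mesenchyme markers, such as COL1A1, a fibrillar collagen at 699, 475 and 128 RPKM, were all detected and all lowest in teratoma 3. Their sums were 1945, 1588 and 434 RPKM, and their part in the VIM level was not tested.

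An antisense gene overlaps VIM. VIM-AS1, a non-coding RNA from the opposite strand, was listed at 581, 512 and 400 RPKM for the entry NR_108061, which is 52.9%, 52.1% and 50.8% of the VIM level. In GENCODE release 29 (GRCh38) the transcript matched to that entry shares 641 of its 918 bases (69.8%) with VIM exons, though the deposited table gives the entry a length of 1875 bases. The other VIM-AS1 entry, NR_108060, shares 0 bases with VIM exons and was listed at 1.15, 0.937 and 0.747 RPKM, from 72, 58 and 44 reads. In GENCODE the VIM-AS1 entries share 277 bases, while NR_108061 had 50394, 43941 and 32688 reads. By that match nearly all reads of NR_108061 lay outside the bases it shares with NR_108060. The strand setting of the counting is not given, so in the bases shared with VIM exons reads of VIM and VIM-AS1 cannot be told apart.

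NES, nestin, a large filament protein of neural stem cells that assembles with vimentin, was the steadiest of the 10. It stood at 94.0, 87.8 and 98.4 RPKM (93.4 ± 5.32, SD, n = 3), a range of 0.16 on the log2 scale. NES was 8.56%, 8.95% and 12.5% of the VIM level in the same library. As NES minus VIM this was -3.33 ± 0.30 on the log2 scale, lower in 3 of 3 libraries (exact two-sided sign-flip permutation p = 0.25, the smallest that 3 libraries allow, and adjusted p = 0.333 over 8 ratios). SOX2, the transcription factor that leads the list of 8 neural progenitor markers, stood at 86.8, 87.1 and 107 RPKM. All 8 were detected and all were highest in teratoma 3, with sums of 247, 269 and 416 RPKM. Only 3 of the 8 had a range of at least 1, and the median range was 0.48. FABP7, with the largest range, stood at 34.3, 48.8 and 134 RPKM.

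**Figure D1:**
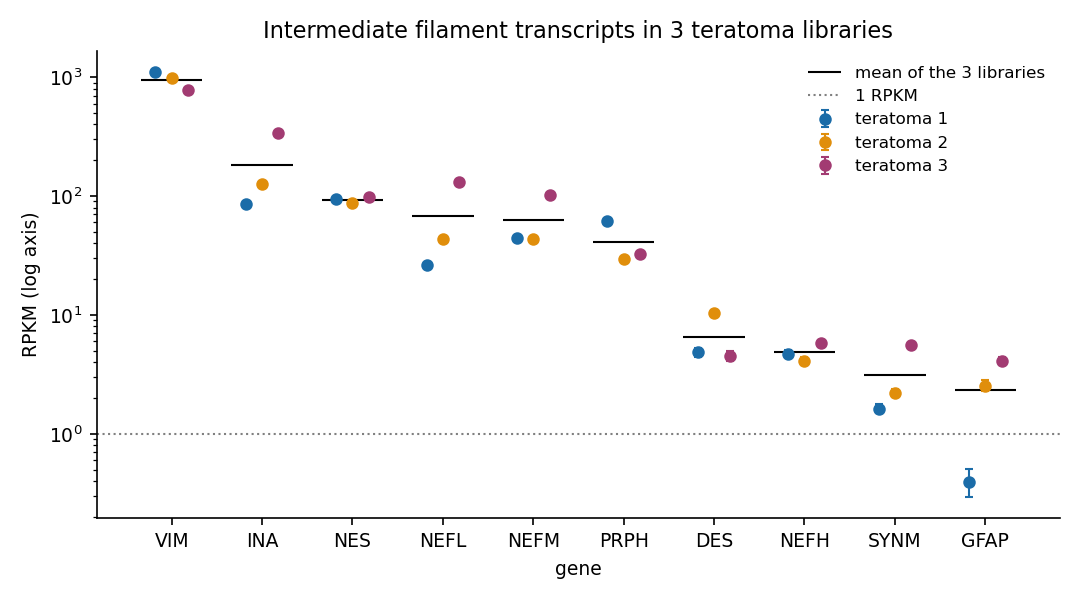
RPKM (log axis) of the 10 genes in each of the 3 libraries, with 95% Poisson counting intervals as bars, the 3-library mean as a black line and 1 RPKM dotted. VIM is near 955 RPKM, NES shows nearly the same level in each library, and INA, NEFL and NEFM are highest in teratoma 3.

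The neuronal filaments INA, NEFL and NEFM were the most variable of the abundant members, and each was highest in teratoma 3. INA, alpha-internexin, which appears early in maturing central neurons, stood at 85.0, 127 and 341 RPKM (184 ± 138), a range of 1.99. NEFL, the light neurofilament subunit that the others assemble on, stood at 26.4, 43.5 and 132 RPKM (67.4 ± 56.9), a range of 2.28. For both genes the order was teratoma 3 above 2 above 1, with counting intervals apart at each step.

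NEFM, the medium subunit, stood at 44.1, 43.4 and 101 RPKM (63.0 ± 33.3, SD, n = 3), a range of 1.21. Teratomas 1 and 2 had overlapping counting intervals of 43.1 to 45.2 and 42.3 to 44.4, so their levels could not be ordered. For INA and NEFL the intervals of the same libraries were apart. NEFM and NEFL are neighbours in the RefSeq annotation, with 0 protein-coding genes and 1 other annotated gene between them.

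NEFH, the heavy subunit, whose long phosphorylated tail is a feature of mature large axons, was low and stable. It stood at 4.72, 4.10 and 5.75 RPKM (4.86 ± 0.837), from 812, 698 and 933 reads, a range of 0.41. Its share of the NEFL level in the same library was 17.9%, 9.42% and 4.35%. As NEFH minus NEFL this was -3.23 ± 1.03 on the log2 scale, lower in 3 of 3 libraries (exact permutation p = 0.25, Benjamini-Hochberg adjusted p = 0.333 over the 8 ratios computed). In teratoma 3, where NEFL was highest, NEFH was the smallest fraction of it.

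The ratio of INA to NEFL was the most even of the neuronal ratios. INA was 3.22, 2.91 and 2.58 times NEFL, or 1.51 ± 0.15 on the log2 scale, and higher in 3 of 3 libraries (exact p = 0.25, adjusted p = 0.333). NEFM minus NEFL was 0.11 ± 0.56 and changed sign between libraries, with NEFM at 1.67 times NEFL in teratoma 1 and 0.766 times in teratoma 3 (exact p = 1.00, adjusted p = 1.00). The mean of that difference turned to -0.19 without teratoma 1. With the sum of the NEFM entries, which share reads, it was 0.88, and NEFM was then higher in 3 of 3 libraries (exact permutation p = 0.25). The 8 ratios could not pass 0.05 with 3 libraries.

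PRPH, peripherin, a filament of sensory, sympathetic and other peripherally projecting neurons, had another order. It stood at 61.6, 29.6 and 32.3 RPKM (41.1 ± 17.8), highest in teratoma 1, with a range of 1.03. PRPH was 2.33, 0.680 and 0.244 times NEFL, so the more abundant of these neuronal filaments differed between libraries. As PRPH minus NEFL this was -0.45 ± 1.60 on the log2 scale (exact p = 0.750, adjusted p = 0.857), and the mean turned to 0.33 without teratoma 3.

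The 12 neuron markers, such as TUBB3, a neuronal tubulin at 435, 509.8 and 1216 RPKM, were all detected and all highest in teratoma 3. Their sums were 773, 989 and 2653 RPKM, and none was near 0. Of the 8 peripheral neuron markers 6 were detected, with sums of 31.7, 22.4 and 47.9 RPKM. In bulk tissue, fewer cells of a type and less RNA per cell cannot be told apart. The part of neuron content in these levels was not tested.

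**Figure D2:**
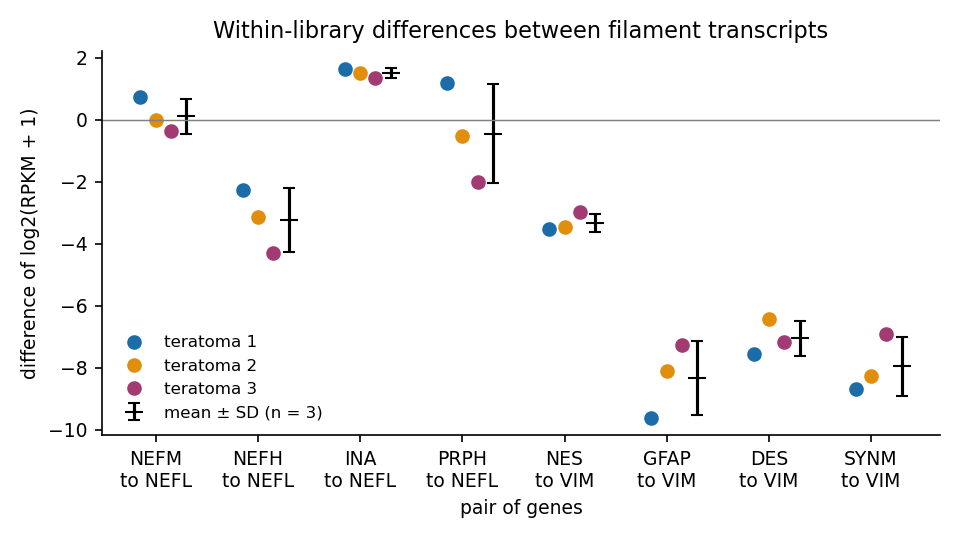
Difference of log2(RPKM + 1) between gene pairs within each library, with the mean ± SD over 3 libraries in black beside the points. INA to NEFL stays near 1.51 in all libraries, while PRPH to NEFL is 1.19 in teratoma 1, -0.54 in teratoma 2 and lowest in teratoma 3.

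GFAP, the filament of astrocytes, had the lowest mean of the 10 and was the one not detected. It stood at 0.392, 2.53 and 4.09 RPKM (2.34 ± 1.86), from 56, 358 and 551 reads. Teratoma 1 lay under 1 RPKM, and the counting intervals of 0.296 to 0.510, 2.28 to 2.81 and 3.76 to 4.45 were apart. The range was 1.87 on the log2 scale, and teratoma 3 was 10.4 times teratoma 1, the largest such fold of the 10. In teratoma 2 SYNM, at 2.20 RPKM, was below GFAP, but its counting interval of 2.04 to 2.38 overlapped that of GFAP. GFAP was 0.0357%, 0.258% and 0.520% of the VIM level.

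The 7 astroglia markers, of which 5 were detected, did not share 1 order. SLC1A2, a glutamate transporter with the largest range of the list (1.99), stood at 2.77, 5.07 and 14.0 RPKM, and ALDOC, a glycolytic enzyme of astrocytes, at 9.90, 19.7 and 40.4 RPKM (range 1.92). Both had the library order of GFAP. GJA1, a gap junction protein and the leader of the list, was highest in teratoma 2, at 47.7, 75.1 and 26.1 RPKM. The other 4 were all lowest in teratoma 3, with S100B at 10.1, 4.71 and 3.84 RPKM. AQP4, the water channel of astrocyte endfeet, stood at 0.704, 0.673 and 0.369 RPKM. The AQP4 range was only 0.32. The sums of the list, in which GJA1 weighs most in teratomas 1 and 2, were 97.0, 128 and 101 RPKM, and the part of astrocyte content in the GFAP level was not tested.

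DES, desmin, the filament of muscle, and SYNM, synemin, a large protein that joins desmin or vimentin filaments, were both low. DES stood at 4.85, 10.3 and 4.49 RPKM (6.54 ± 3.24), from 504, 1058 and 440 reads, a range of 1.04. It was highest in teratoma 2, while the intervals of teratomas 1 and 3, 4.43 to 5.29 and 4.08 to 4.93, overlapped. Without teratoma 2 the DES range was 0.09.

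Smooth muscle markers were mostly highest in teratoma 2, as DES was, and striated muscle markers were not. Of 10 striated muscle markers 1 was detected, ACTA1, skeletal actin, at 6.44, 6.23 and 6.72 RPKM, and the sums of 12.9, 8.15 and 17.6 RPKM were lowest in teratoma 2. MYF5, a factor of early muscle precursors, had 7, 0 and 20 reads. Of 6 smooth muscle markers 3 were detected, with sums of 70.4, 81.4 and 25.2 RPKM, led by TAGLN at 40.5, 37.4 and 13.7 RPKM. ACTA2, smooth muscle actin, was highest in teratoma 2, at 13.6, 26.7 and 6.10 RPKM. So were MYH11, CNN1 and LMOD1, which were not detected, making 4 of the 6. TAGLN and SMTN were highest in teratoma 1. The part of either muscle type in the DES level was not tested.

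SYNM stood at 1.63, 2.20 and 5.56 RPKM (3.13 ± 2.12), a range of 1.32. It was highest in teratoma 3, as INA and NEFL were, and not in teratoma 2, where DES was highest. SYNM was 0.149%, 0.225% and 0.706% of the VIM level. As SYNM minus VIM this was -7.96 ± 0.94 on the log2 scale, while DES minus VIM was -7.05 ± 0.56 and GFAP minus VIM -8.34 ± 1.19. Each was lower in 3 of 3 libraries, with exact permutation p = 0.25 and adjusted p = 0.333.

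**Figure D3:**
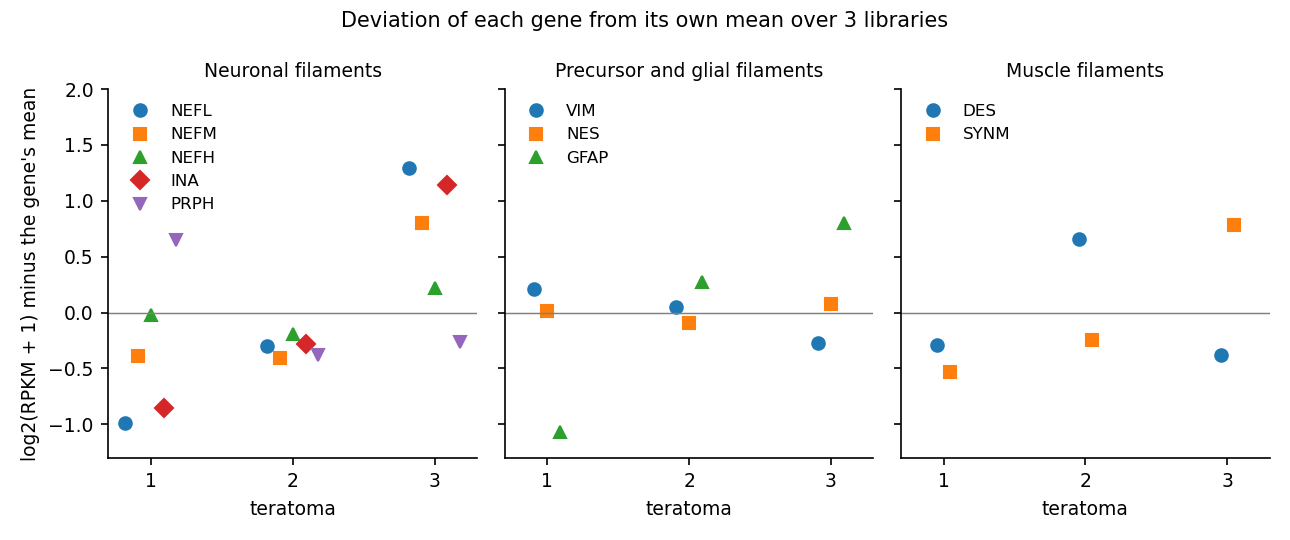
Deviation of log2(RPKM + 1) from each gene's own mean over the 3 libraries, by role, with libraries on the x axis in no order of time or dose. NEFL, INA, NEFM, GFAP and SYNM lie highest in teratoma 3, at 0.78 to 1.29, while PRPH is highest in teratoma 1 (0.65) and DES in teratoma 2 (0.66).

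Of the 10 genes 7 had a range of at least 1, against 12.1% of all genes. Such a range with teratoma 3 highest was found for 5 of the 10, against 4.52% of all genes. Over all genes 3303 had such a range, and 1235 of those were highest in teratoma 3. The 5 members were NEFL, INA, GFAP, SYNM and NEFM, and the others of the 7 were PRPH and DES. Among detected genes alone, 6 of 9 members had such a range, against 17.6% of all detected genes. The median range was 1.12 over the members and 0.42 over all detected genes. Teratoma 3 was the highest library for 7 of the 10 members, and for 6 of the 9 detected ones, against 40.9% of all detected genes. The highest library of each of the 10 genes was the same under 3 other scalings. The count of ranges of at least 1 was 2 without teratoma 3, and 5 with median-of-ratios scaling, since PRPH and DES stood just above 1.

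The make-up of the filament transcripts differed more between libraries than their sum. The 10 genes summed to 1421, 1331 and 1513 RPKM, while VIM made up 77.3%, 73.7% and 52.0% of the sum. NEFL, NEFM, NEFH and INA together made up 11.3%, 16.4% and 38.4%. In RPKM those 4 summed to 160.3, 218 and 581. NES stayed at 6.62%, 6.60% and 6.50% of the sum. The 6 type IV genes together held 18.0%, 23.1% and 45.3%, and the 4 type III genes 82.0%, 76.9% and 54.7%. These shares do not depend on how the libraries are scaled.

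**Figure D4:**
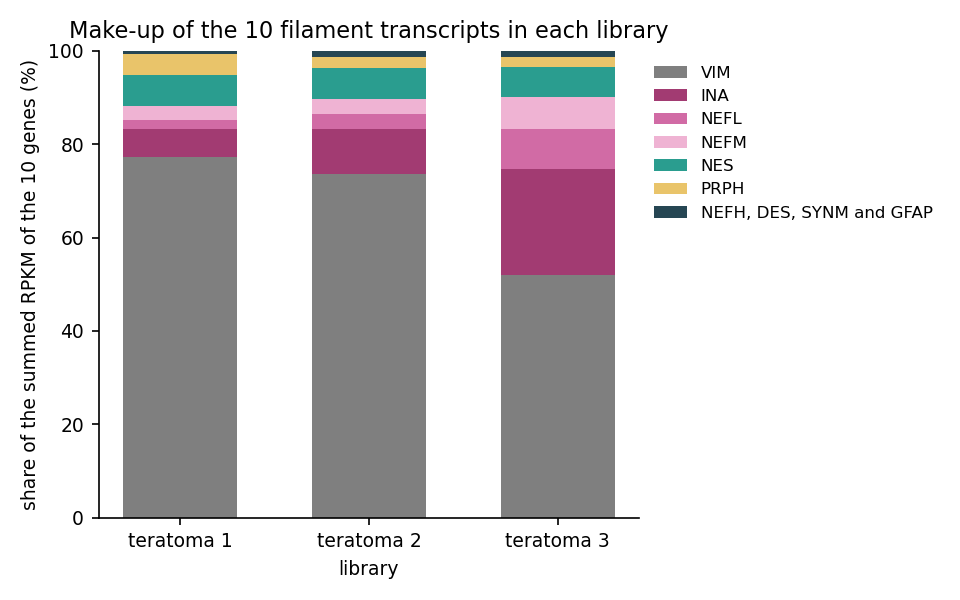
Share (%) of the summed RPKM of the 10 genes taken by each gene in each library, with the 4 least abundant genes joined. VIM takes 77.3%, 73.7% and 52.0%, and INA 5.98%, 9.52% and 22.6%, in teratomas 1, 2 and 3.

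By mean level the order was VIM, INA, NES, NEFL, NEFM, PRPH, DES, NEFH, SYNM and GFAP. By their values, 3 of the 9 neighbouring pairs in that order had the same order in all 3 libraries. These were VIM over INA (2.61 ± 1.27 on the log2 scale), PRPH over DES (2.49 ± 1.00) and NEFH over SYNM (0.61 ± 0.54), each with exact permutation p = 0.25 and adjusted p = 0.643 over the 9 pairs. For NEFH over SYNM in teratoma 3 the difference was only 0.04, and the counting intervals of 5.39 to 6.13 and 5.28 to 5.84 RPKM overlapped, so that library does not order this pair beyond counting error. The other 6 pairs changed order between libraries, INA being below NES in teratoma 1 and NES below NEFL in teratoma 3. SYNM was below GFAP only in teratoma 2, where their counting intervals overlapped, so that change was not beyond counting error. The mean levels formed 3 tiers, VIM, then INA to PRPH, then DES to GFAP, within which most neighbours could not be ordered. No gene left its tier in any library, but the gaps between tiers were not always wider than those within them. In teratoma 3 VIM was 1.20 above INA on the log2 scale, less than the 1.78 of INA above NES.

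GFAP, NEFM and SYNM had several transcript entries, which share exons, so their reads are not independent. The longest GFAP entry, NM_002055, had 56, 358 and 551 reads, while NM_001131019 had 21, 149 and 243 and NM_001242376 had 22, 150 and 246. In GENCODE the shorter pair share 98.1% of the bases of NM_001131019, and their counts were nearly equal. All 3 GFAP entries were lowest in teratoma 1 and highest in teratoma 3.

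The SYNM entries NM_015286 and NM_145728 stood at 1.63, 2.20 and 5.56 and at 1.67, 2.18 and 5.44 RPKM. In GENCODE the shorter lies wholly within the longer. The 936 additional bases of the longer entry held 82, 87 and 189 more reads, or 14.5%, 11.8% and 10.8% of its reads for 12.7% of its length. The share of reads in that stretch was thus close to its share of the length. The NEFM entries NM_005382 and NM_001105541 stood at 44.1, 43.4 and 101 and at 30.4, 30.7 and 74.7 RPKM, both highest in teratoma 3.

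Profiles over the 3 libraries were compared with those of 112 genes in lists of linkers, regulators and cell type markers, by the Euclidean distance between log2(RPKM + 1) values centred on each gene's mean. With 3 points such likeness is common, so the number of genes as near is given for scale, out of 15700 whose mean reached 1 RPKM. That number includes the named gene itself where its own mean reached 1 RPKM. The nearest to INA were SYN1, a synaptic vesicle protein (6.72, 10.5 and 29.4 RPKM, distance 0.02, with 2 genes as near), and FABP7 of radial glia (34.3, 48.8 and 134 RPKM, distance 0.05, 13 genes). The nearest to NEFL were SNAP25, a synaptic fusion protein (distance 0.15, 31 genes), and CDK5R1 (0.16, 40 genes). NEFM was nearest to TUBB3 (0.23, 272 genes) and CDK5 (0.27, 423 genes).

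Outside that set, PRPH was near to CRYAB, a small heat shock chaperone (6.38, 2.19 and 2.55 RPKM, distance 0.13, 9 genes). GFAP was nearest to PAX6 (0.30, 21 genes) and SLC1A3 (0.35, 31 genes), both placed in the list of neural progenitor markers, which need not be particular to those cells. SYNM was nearest to TUBB3 (0.16, 339 genes) and RBFOX3 (0.19, 437 genes), both of neurons. VIM was nearest to LMNB1 and PLEC (0.06 each, 291 and 329 genes), and NES to NOTCH1 and ACTA1 (0.05 each, 330 and 350 genes). DES was nearest to TEK (0.30, 86 genes) and ALDH1L1 (0.31, 95 genes), and NEFH to TRIM32 and MYF5 (0.02 each, 18 and 24 genes), MYF5 on few reads.

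Relatives and partners of the members varied in their patterns. Of 8 other non-keratin intermediate filament genes 6 were detected. They were led by the nuclear lamins LMNB2 (80.0, 68.6 and 47.4 RPKM) and LMNA (64.0, 58.1 and 30.2 RPKM). LMNA, lowest in teratoma 3, was the 1 with a range of at least 1. The lens filament genes were those not detected, with BFSP1 at 1.25, 1.55 and 0.686 RPKM and BFSP2 at 0 reads in each library, which allows up to 0.0411, 0.0415 and 0.0436 RPKM for counting error alone. The 4 simple epithelial keratins were all lowest in teratoma 3, with sums of 532, 572 and 130.1 RPKM. Among them were KRT19 at 235, 277 and 66.0, KRT8 at 205, 205 and 44.9 and KRT18, with the largest range (2.20), at 80.3, 78.5 and 16.7 RPKM.

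Plakins, which tie intermediate filaments to junctions and to other filaments, were detected in 6 of 7 cases, EVPL being the exception. DSP, desmoplakin of desmosomes, had the largest range (1.94), at 32.6, 40.1 and 9.68 RPKM, and PLEC, plectin, stood at 28.0, 26.6 and 20.3 RPKM. The 4 plakins with a range of at least 1, DSP, PPL, EVPL and EPPK1, were all lowest in teratoma 3. DST and MACF1, which also link microtubules, were highest there, MACF1 at 12.3, 14.1 and 20.5 RPKM.

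Among 12 genes of filament phosphorylation, turnover, transport and chaperoning 11 were detected. HSPB1, a small heat shock chaperone, stood at 93.6, 70.6 and 42.6 RPKM. CDK5R1, the activator of the neuronal kinase CDK5 that phosphorylates neurofilament tails, had the largest range (2.09), at 24.5, 40.5 and 107 RPKM. Of the 6 with a range of at least 1, CDK5R1, CDK5 and KIF5A, a kinesin that carries neurofilaments, were highest in teratoma 3, HSPB1 and PADI2 were lowest there, and CRYAB was highest in teratoma 1.

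Some markers of each of 4 other cell types were detected. Of 5 endothelial markers 2 were detected, with sums of 22.4, 24.3 and 5.52 RPKM, led by CLDN5. Of 4 leukocyte markers 2 were detected, CD74 and CD68, and the list summed to 33.9, 29.7 and 13.3 RPKM, led by CD74. AIF1 and PTPRC were not detected, PTPRC standing at 0.0656, 0.128 and 0.0788 RPKM from 15, 29 and 17 reads. The 7 markers of myelinating glia, of which 6 were detected, were led by PMP22 and summed to 96.5, 60.5 and 42.7 RPKM, with MOG at or under 3 reads in each library. All 4 epithelial markers, led by CLDN6, were detected, with sums of 309, 276 and 75.8 RPKM. The sums were lowest in teratoma 3 for these 4 lists, as was VIM, and the part of these cell types in the VIM level was not tested.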

How the data were processed

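The 3 libraries were prepared from polyadenylated RNA with the NEBNext Ultra II kit, per the labels' protocols. Bowtie2 and hg19 are named in the submitters' processing notes. The counting tool, strand setting and handling of mouse reads were not given in the sources used here. For each of 59443 RefSeq entries the authors deposited raw read counts and RPKM values, the count divided by transcript length and by 1 total per library. Totals were 46243199, 45815402 and 43605458 reads, and 3 reads on 2000 bases are 0.0324, 0.0327 and 0.0344 RPKM. Intervals are exact 95% Poisson intervals of the counts and, like these floors, cover counting error only.

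The libraries form 1 group, so no between-group model was run. Ratios and neighbouring levels were tested within libraries by exact two-sided sign-flip permutation tests on log2(RPKM + 1), with Benjamini-Hochberg adjustment over each family. A range is the highest minus the lowest library. All 10 members were named, with, of each list, the leading genes, that of the largest range for filament lists, and the 2 genes nearest to each member, except a few genes that are not reported here. Members and lists were chosen with earlier results of these data known. Alternatives covered the entry kept per symbol, library scaling (with TMM factors from edgeR 4.0.16 in R 4.3.3), the pseudocount, thresholds and each library left out. Python 3.11.15, numpy 2.4.6, pandas 2.3.3, scipy 1.17.1 and matplotlib 3.10.9 were used. Promoter sequences came from the RefSeq table, which held 5 of the 10 members, and exon overlaps from GENCODE release 29 (GRCh38), not the build of the files.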

Additional observations from a re-analysis of the deposited data

How the results depend on the processing

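Of 117 values of 13 results under the alternatives, 110 were taken as kept, and 4 counts and 3 differences were not. A difference was kept if its sign held, whatever its size, and a count if it stayed within a set factor. The VIM share was kept if it moved by less than its SD over the libraries. Thus 0.88 against 0.11 for NEFM minus NEFL, and 5 ranges of at least 1 against 7, were taken as kept. The count of members with a range of at least 1, 7 as reported, was 1, NEFL, when a range of at least 2 was asked. INA, at 1.99, and GFAP, at 1.87, fell short there, but had ranges of 2.11 and 2.77 after rescaling to 1000000 per library. With a library left out the count lay between 2 and 5, at 2 without teratoma 3. Neighbouring members in the same order in all libraries, 3 of 9 as reported, numbered 3 to 6 with a library left out, where fewer libraries had to match. NEFM minus NEFL, 0.11 on the log2 scale, was -0.11 with the mean of the NEFM entries, 0.88 with their sum, and between -0.19 and 0.36 with a library left out. PRPH minus NEFL, -0.45, lay between -1.27 and 0.33 with a library left out, positive without teratoma 3. The count of neighbours moved most without teratoma 1, which also turned the sign of NEFM minus NEFL, and the count of ranges moved most without teratoma 3. The cause was not tested. Rescaling RPKM to 1000000 per library multiplied all genes, by 1.75, 1.80 and 1.86 on the log2 scale in teratomas 1, 2 and 3, and brought GFAP above the detection level. No paired analysis was possible because there is no other group whose libraries could be matched by number to these, and the differences within a library pair genes, not samples. With 3 libraries no test here could reach 0.05. Depth limits mainly GFAP in teratoma 1, which rests on 56 reads.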
